A study of Leucoraja erinaceus with 4 samples.

Results

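The comparison set the synarcual against the post-synarcual axial skeleton of little skate embryos (Leucoraja erinaceus) at stage 33, with 2 of the 4 samples of the series, 1 library per region. The samples were chosen by their titles, stage and tissue, and the comparison covered 9003 of the 23105 assembled features, those with at least 50 counts in the higher of the 2 libraries. A feature is a gene of a transcriptome assembled de novo from the reads. The other 2 samples are the same regions at stage 28, and they are used here for the scaling and for values side by side. All 4 groups are embryonic tissue of males with no treatment named, dissected free of central nervous system and axial muscle; no strain or age is given beyond the stage. The protocol mentions 2 males and leaves unclear how many animals stand behind each library, and whether both regions of a stage came from the same animal. With 1 library per region there is no replicate check, no p-value and no test of any difference below, and region cannot be told apart from animal or library. Printed intervals cover counting error only.

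In skates the front vertebrae fuse into a single cartilaginous block, the synarcual, which stiffens the column behind the skull and braces the pectoral girdle. Behind it the vertebrae stay separate and jointed. Such cartilage is laid down by chondrocytes, which secrete a matrix rich in collagen and large proteoglycans, and each vertebral body forms around the notochord. The files pair none of the features with a gene name, and a RefSeq gene table for this skate held 0 of their identifiers. Features are therefore described by their identifiers, levels, lengths and behaviour, and the labelled tissue was not checked against marker genes. No gene is assigned to any identifier.

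The deposited estimated counts sum to 4713268 for the stage 33 synarcual and 5092346 for the stage 33 post-synarcual. The post-synarcual counts were the more concentrated: 39 features held 50% of them, against 136 in the synarcual. Levels are therefore given after trimmed-mean (TMM) scaling, which divides each count by an effective library size (3919380 for the synarcual, 3057540 for the post-synarcual); a log2 fold of 1 is a 2-fold higher level in the synarcual, and -1 a 2-fold lower one. With this scaling the median log2 fold of the compared features was 0.0031. Total counts moved that median to 0.47, DESeq2's size factors to -0.025 and the deposited TPM (a transcript level corrected for length) to 0.51, so how many features come out higher or lower depends on the scaling.

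At the 2-fold limit, 568 features stood higher in the stage 33 synarcual (6.31% of those compared) and 490 lower (5.44%). The minimum of 50 was set on raw counts, and 8735 features reached it in the synarcual against 7577 in the post-synarcual. It thus admitted more features through the synarcual count alone. A minimum of 100 counts gave 382 higher and 373 lower. With TMM scaling, whose median fold was near 0, most features were close between regions. Of the 9003, 6037 or 67.1% lay within 0.5 log2 of equality, and the lower and upper quartiles of the folds were -0.31 and 0.34. That share was not recomputed with total counts or in TPM, where the median fold was 0.47 and 0.51. The largest differences were modest and leaned downward. Only 2 features were at least 4-fold higher in the synarcual (0.0222%), against 31 at least 4-fold lower (0.344%). With total counts the same rule gave 1451 higher and 241 lower features, and 56 and 3 at 4-fold. The counting interval excluded an equal level for all 568 higher and all 490 lower features. The fold limit and the count minimum in the same libraries made this nearly certain, so it adds nothing to the calls. The interval lay wholly beyond 2-fold for 141 higher and 302 lower features. It narrows with the count, and the median count in the higher library was 149 for the higher and 262.5 for the lower features. These 2 numbers therefore depend on abundance as well as on the size of the fold. The features nearest the limit had log2 folds of 1.0005 and 0.9997 on the higher side and -1.0004 and -0.9987 on the lower side.

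No compared feature was confined to 1 region at stage 33. The count in the lower library was never 0 and never at or under 3, the count that a value of 0 allows for, and its lowest value was 9. In the stage 28 regions, where 10582 features met the same minimum, 5 had 0 counts in the lower library and 30 had 3 or fewer. The stage 28 folds ran from -6.10 to 8.55 on the log2 scale and the stage 33 folds from -3.24 to 2.34. There, 465 features passed 2-fold upward (4.39%) and 522 downward (4.93%), of which 118 (1.12%) and 173 (1.63%) passed 4-fold. Thus, with TMM scaling, the 2-fold share was of similar size at both stages while the 4-fold share at stage 33 was the smaller one. With total counts the stage 33 numbers at 2-fold were 1451 higher and 241 lower, and the stage 28 numbers were not recomputed. The effective library sizes were larger at stage 28, 5782600 for the synarcual and 5661400 for the post-synarcual. The same minimum of 50 counts is therefore a lower scaled level there, and the features compared at the 2 stages are not a like set. The difference between stages was not tested, with 1 library per region.

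**Figure D1:**
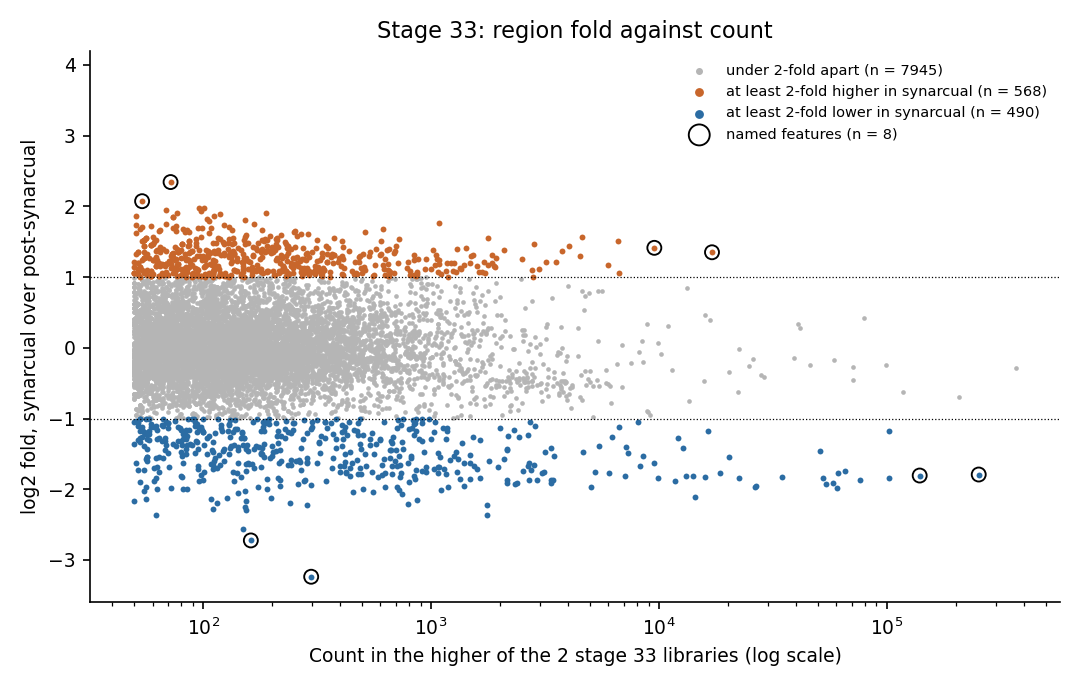
Each point is 1 of the 9003 compared features, with its count in the higher stage 33 library on a log axis and its TMM-scaled log2 fold of synarcual over post-synarcual on the vertical axis; dotted lines mark 2-fold. Coloured points are the 568 higher and 490 lower features, circles mark 8 named features, and beyond 5000 counts the lower features gather near -1.8.

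The direction of the difference depended on how abundant a feature was. Among the 5768 features with 50 to under 200 counts in the higher library, the median log2 fold was 0.026, with 339 higher and 216 lower. Among the 2686 features with 200 to under 1000 counts it was -0.012, with 175 higher and 166 lower. These 2 medians near 0 hold for TMM scaling and DESeq2's size factors only. They were 0.48 and 0.45 with total counts, and 0.53 and 0.50 in TPM. The 453 features with 1000 to under 5000 counts had a median of -0.29, with 49 higher and 68 lower; that median is -0.32 with DESeq2's size factors and turns to 0.18 with total counts, 0.058 with totals that leave out the 10 most abundant features of either library, and 0.22 in TPM. Among the 96 features with at least 5000 counts, the synarcual level was at least 2-fold lower in 40 and at least 2-fold higher in 5, with a median of -0.62. That is 41.7% lower against 5.44% of all compared features. This median stayed negative under every scaling tried, at -0.15 with total counts and -0.12 in TPM, where the median of all features was 0.47 and 0.51. The 96 features held 46.6% of synarcual and 58.3% of post-synarcual counts. The classes were set by the higher of the 2 raw counts, so a feature could enter a class through either count alone. At an equal scaled level the synarcual count is the larger one, so entry through it was easier. The shares of higher and lower features in a class are thus not independent of the counts that set the fold.

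The 40 abundant features that were lower in the synarcual had log2 folds from -2.11 to -1.04. Folds of -2 to -1.5 were found in 28 of the 40 and folds of -1.5 to -1 in 11. For the 28 this corresponds to levels 2.90 to 3.95 times lower, with a median of 3.53. The lower and upper quartiles of the 28 were -1.87 and -1.77. Over all compared features only 2.17% lay in that window, against 29.2% of the features with at least 5000 counts. The next fullest window of the abundant features was that from -0.5 to 0, with 22 of them, so that their folds formed 2 gatherings with fewer features between. The 28 features took 9.11% of the synarcual counts and 23.3% of the post-synarcual counts. They varied widely in other respects: lengths ran from 619 to 9530 bp, 22 of the 28 had 1 transcript, and their TPM in the post-synarcual ran from 329 to 38801 with a median of 3975. In bulk tissue a smaller number of cells of a type and less RNA per cell cannot be told apart, and what else the 2 dissections hold was not measured. The window was chosen after its content was seen, and it moves as a whole with the scaling. Its abundant features were taken by the higher of the 2 counts that also set the fold.

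**Figure D2:**
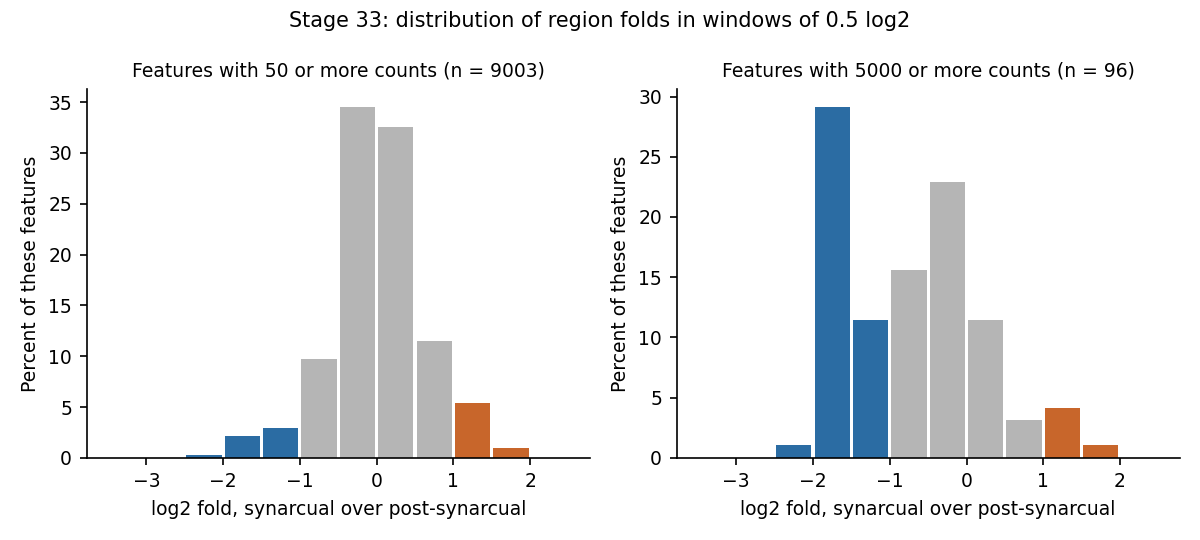
Bars give the percent of features per window of 0.5 in log2 fold (synarcual over post-synarcual, TMM scaling) for all 9003 compared features on the left and for the 96 with at least 5000 counts on the right; blue windows lie at or below -1 and orange ones at or above 1. The left distribution has 1 peak around 0, and the right one has its tallest bar, 29.2%, between -2 and -1.5.

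The lower features together were also a larger part of the libraries than the higher ones, mostly through the 40 abundant ones. The 490 lower features held 14.1% of synarcual counts and 32.9% of post-synarcual counts, and the 40 abundant ones among them 11.9% and 28.2%. The 568 higher features held 5.12% and 1.54%. By TPM, a level per length, the median lower feature stood at 25.2 (synarcual) and 50.7 (post-synarcual), and the median higher feature at 24.0 and 6.70. The median over all compared features was 22.0 and 15.2 on this scale. These shares and levels come from the same 2 libraries that set the calls, so they are not independent of the calls. Of the 13 features that ranked among the 10 with most counts in either library, 5 passed the 2-fold limit downward and none upward with TMM scaling. Of all compared features, 5.44% passed it downward and 6.31% upward. Ranked by TPM instead, the 14 features included 9 that were at least 2-fold lower and again none higher. Both rankings used values of the same 2 libraries that set the fold, and a high post-synarcual value both admits a feature and lowers its fold. These numbers are therefore not independent of the fold. The TPM leaders were shorter, with a median length of 1252 bp against 5641 bp for the leaders by count. Ranking by a level per length favours short features by definition, so this is no finding about the tissue.

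The most abundant feature of both libraries by count was TRINITY_DN37437_c0_g1, singled out after its values were seen. Its synarcual count was 367344 and its post-synarcual count 350272, and with TMM scaling its level was 1.22 times lower in the synarcual (95% counting interval 1.22 to 1.23), under the 2-fold limit. This direction turns with the scaling: the feature took 7.79% of synarcual and 6.88% of post-synarcual counts, so by total counts the synarcual was the higher one. By TPM it ranked first in the synarcual, at 22054, and at place 5 in the post-synarcual, at 19030, again with the higher value in the synarcual.

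The 2 lower features with the most counts, named by rule, lie in the window from -2 to -1.5. TRINITY_DN41535_c0_g1, of 6023 bp, had 93633 synarcual and 252871 post-synarcual counts at stage 33, against 126 and 2024 at stage 28. Its synarcual level was the lower one at both stages, 3.46-fold at stage 33 (3.44 to 3.49) and 16.4-fold at stage 28 (13.7 to 19.8). It took 1.99% of synarcual counts (1.97 to 1.999, exact 95% Clopper-Pearson) and 4.97% of post-synarcual counts (4.95 to 4.98), and its TPM of 5618 and 13731 put it at place 16 and place 9. TRINITY_DN30875_c0_g1, of 9530 bp, had 51062 and 139276 counts at stage 33. It was 3.50-fold lower in the synarcual (3.46 to 3.53), nearly the same factor as the previous feature. At stage 28 the order was opposite, with 61854 synarcual against 25121 post-synarcual counts, a 2.41-fold higher level in the former (2.38 to 2.45). Its scaled CPM, a count relative to the effective library size, was 10697 for the synarcual of stage 28 and 13028 for that of stage 33, against 4437 and 45552 in the post-synarcual. The synarcual values are close to each other, and the post-synarcual values are the lowest and the highest of the 4.

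The 2 higher features with the most counts reached far smaller totals. TRINITY_DN45029_c0_g1, of 3327 bp, had 17088 synarcual and 5226 post-synarcual counts, a 2.55-fold higher level (2.47 to 2.63). At stage 28 its counts were 6025 and 5348, a ratio of 1.10 (1.06 to 1.14). TRINITY_DN35577_c0_g1, of 1314 bp, had 9544 and 2794 counts at stage 33, a 2.66-fold higher synarcual level (2.55 to 2.78). The earlier stage had 2078 and 1672 counts, a ratio of 1.22 (1.14 to 1.298). For both features the stage 33 synarcual was the highest library, and the stage 28 ratios were close to 1. TRINITY_DN35577_c0_g1 shares its assembly component with a feature of 754 bp, TRINITY_DN35577_c0_g2, so reads may be split between them. That partner had 4046 and 1161 counts and a ratio of 2.72 (2.55 to 2.90), which overlaps the interval of the first.

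The largest folds were found in features of few counts. TRINITY_DN42536_c1_g1, of 2258 bp, had 39 synarcual against 298 post-synarcual counts, and was 9.79-fold lower (6.999 to 14.1), the largest fold of all compared features with TMM scaling. In deposited TPM its log2 fold was -2.77, smaller in size than the 2.93 of TRINITY_DN33288_c0_g1. At stage 28 it had 3 and 1 counts, at which no region difference was detectable. TRINITY_DN27263_c0_g1, of 1643 bp, had 30 and 162 counts and was 6.92-fold lower in the synarcual (4.67 to 10.6). Its stage 28 counts of 3 and 24 went the same way, 8.17-fold lower (2.48 to 42.4). TRINITY_DN33288_c0_g1, of 1934 bp, had 72 and 10 counts, a 5.62-fold higher synarcual level (2.88 to 12.2), and 16 and 17 counts at stage 28. TRINITY_DN29973_c1_g1, of 2242 bp, had 54 and 9 counts and was 4.68-fold higher (2.29 to 10.8), with 10 and 3 counts at stage 28. The stage 33 library with the higher level was in each case the highest of the 4 libraries. By TPM these 4 features stood between 6.62 and 14.5 in the synarcual and between 1.39 and 45.7 in the post-synarcual, far below the abundant lower features.

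**Figure D3:**
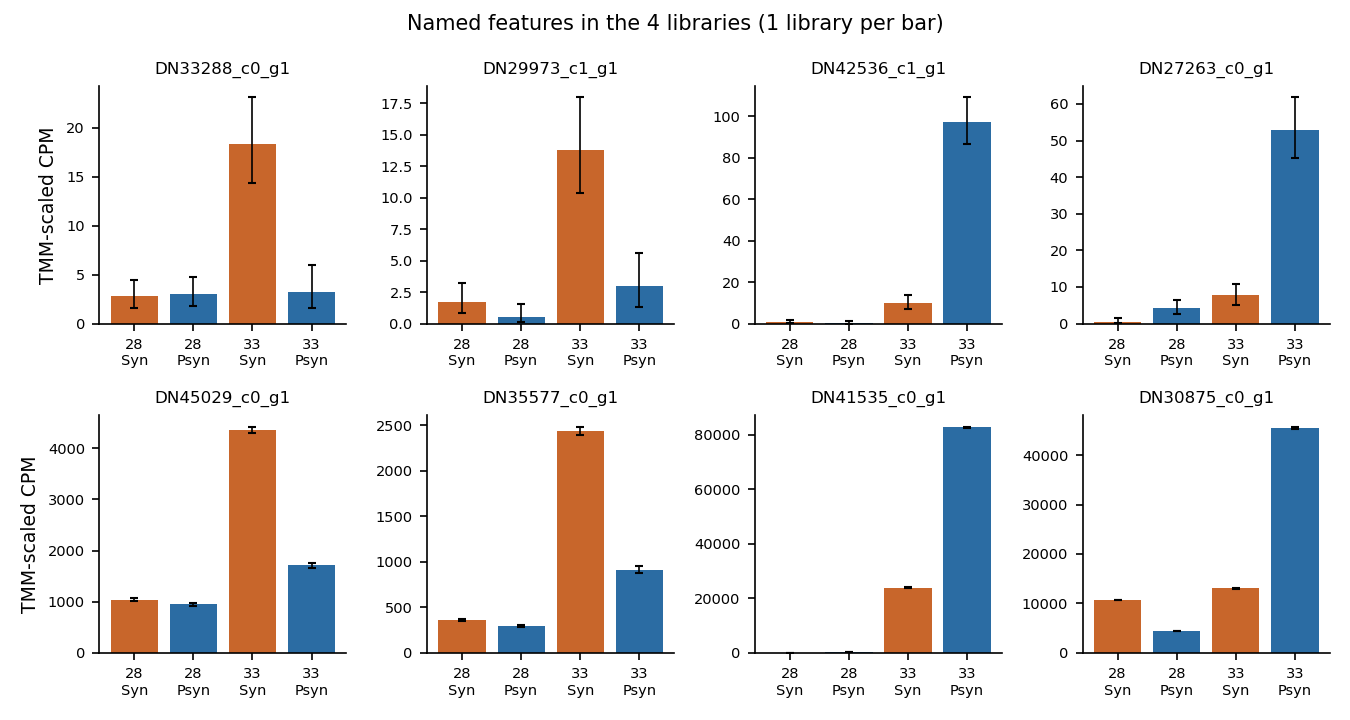
Bars give the TMM-scaled CPM of 8 named features in the 4 libraries (Syn, synarcual, orange; Psyn, post-synarcual, blue; 28 and 33, stage), with exact 95% Poisson intervals that cover counting error only and a separate axis from 0 for each feature. In 4 features the stage 33 synarcual is highest and in 4 the stage 33 post-synarcual; TRINITY_DN30875_c0_g1 has the opposite order of regions at stage 28.

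The features called at stage 33 were next described by their stage 28 values, which share no library with the stage 33 comparison. Of the 490 lower features, 62 (12.7%) had fewer than 10 counts in both stage 28 libraries, against 26 of the 568 higher features (4.58%) and 161 of all 9003 (1.79%). Both lists thus held features with little signal at stage 28, the lower list more of them. Where a feature had at least 50 counts at stage 28, its region fold there could be set beside the stage 33 fold. For the 314 such lower features the stage 28 median was -0.81 log2, with quartiles of -1.99 and -0.12, and 256 of them (81.5%) were below 0, against 47.9% of all 8206 features compared at both stages. For the 399 such higher features the median was 0.62, with quartiles of 0.14 and 1.04, and 319 (79.9%) were above 0, against 52.1%. The median over all 8206 was 0.019. At the 2-fold limit, 143 of the 314 were lower at stage 28 too and 8 were higher, and 111 of the 399 were higher too and 15 were lower. That is 45.5% and 27.8% with the same direction, where 4.58% of the 8206 features were lower and 2.97% higher at stage 28. Total counts and TPM also redrew the lists, to 241 lower and 1451 higher features and to 232 and 1645. The stage 28 medians of those other lists were -1.998 and 0.27 with total counts, and -2.15 and 0.17 in TPM. Their signs are the same, but they are not values of the 490 and 568 features.

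The stage 28 fold changed unevenly with the stage 33 fold. Features between -1.5 and -1 at stage 33 had a stage 28 median of -0.36 (185 features), and those between -2 and -1.5 had one of -1.99 (118 features). On the higher side the stage 28 median was 0.64 between 1 and 1.5 (356 features) and 0.61 between 1.5 and 2 (43 features). From -0.5 to 0 and from 0 to 0.5 at stage 33 the stage 28 medians were -0.029 and 0.053. Of the 28 abundant features in the window from -2 to -1.5, 26 had at least 50 counts at stage 28; 22 of these passed the 2-fold limit downward there as well, against 4.58% of the 8206, and the median of the 26 was -2.74. Below 0 at stage 28 were 23 of the 26, and only TRINITY_DN30875_c0_g1 passed the 2-fold limit upward there. The 11 abundant features between -1.5 and -1 behaved otherwise, with a stage 28 median of 0.33 over the 8 that could be measured. Of the abundant features under 2-fold apart at stage 33, 48 had at least 50 counts at stage 28, and 8 of these were at least 2-fold lower there. The 4.58% is thus a share over features that are mostly less abundant. The 28 features took 1.76% and 1.86% of the counts of the 2 stage 28 libraries, and TRINITY_DN30875_c0_g1 alone took 1.48% of the former.

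**Figure D4:**
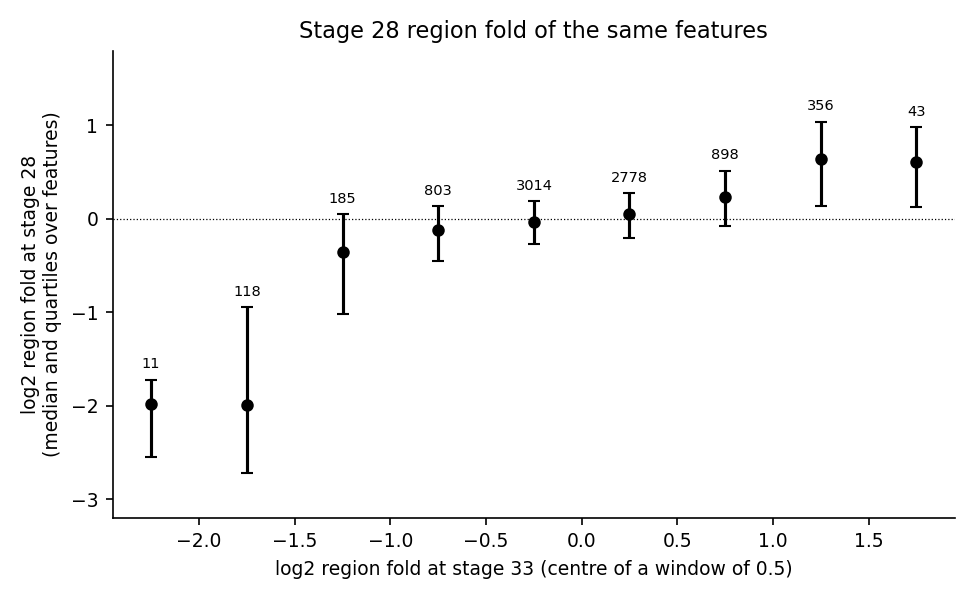
For each window of 0.5 in the stage 33 log2 fold, the point is the median and the bar the quartiles of the stage 28 log2 fold (synarcual over post-synarcual) over the features with at least 50 counts at stage 28, whose number is printed above; windows with fewer than 10 such features are left out. The median falls from -0.36 to -1.99 from the window of -1.5 to -1 to that of -2 to -1.5, and rises to 0.64 on the other side.

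Feature length went with the fold. The compared features were divided by length into 4 groups of equal size. The shortest group, of 202 to 1600 bp, had a median log2 fold of -0.12 with 111 higher and 184 lower, and the other 3 groups had medians of 0.016, 0.072 and 0.056 with 171, 151 and 135 higher and 130, 95 and 81 lower. The shortest group had the lowest median in each count class below 5000. Among features with 1000 to under 5000 counts the shortest group had a median of -0.47 and quartiles of -0.63 and -0.21 over 138 features, 8 of them at least 2-fold higher and 16 lower. With total counts the median of these 138 features was -0.0043 and in TPM 0.051, where the medians of all compared features were 0.47 and 0.51, so the shift holds relative to the other features only. At stage 28 the same 138 features, of which 131 had at least 50 counts, had a median of 0.19. Over all classes the stage 28 medians from the shortest to the longest group were 0.16, 0.081, -0.011 and -0.14, so the group with the lowest median at stage 33 had the highest at stage 28.

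Fragment length moved with these medians. For features over 1000 bp, the median difference between length and effective length in the files, which follows the mean fragment length of the library, was 201.6 bp for the synarcual and 193.2 bp for the post-synarcual at stage 33. At stage 28 it was 190.5 and 193.5 bp, so the region with the longer fragments had the lower short features at both stages. The part of fragment length in the length trend was not tested. The deposited TPM corrects for effective length, and relative to the median of all features the shortest group had -0.11 in TPM against -0.13 in scaled counts.

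**Figure D5:**
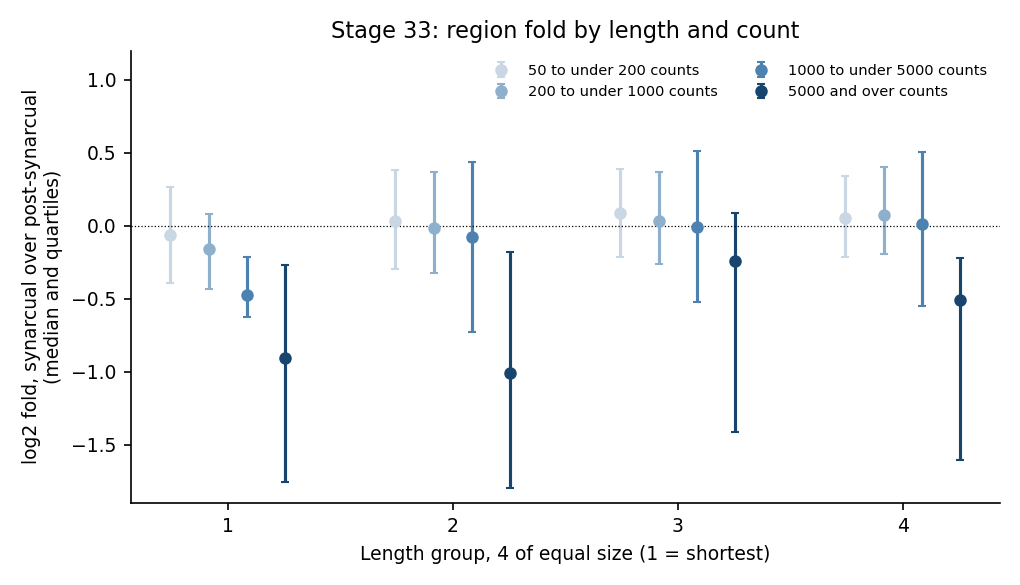
Points are medians and bars quartiles of the stage 33 log2 fold (synarcual over post-synarcual, TMM scaling) per length group, from 202 to 1600 bp in group 1 to 3656 bp and over in group 4, and per class of the higher count. In the 3 classes below 5000 counts group 1 is lowest, reaching -0.47 for 1000 to under 5000 counts, and in the top class all 4 medians are below 0.

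The number of transcripts assembled for a feature showed little relation to the fold. Features with 1, 2 and at least 3 transcripts had medians of 0.00053, 0.014 and -0.013, and 6.395%, 6.28% and 5.55% of them were at least 2-fold higher. Features that share an assembly component mostly moved the same way where more than 1 of them was called. Of 369 components with at least 2 compared features, 37 had at least 2 called ones. Of the 37, 15 were higher throughout, 21 lower throughout and 1 mixed. In 49 components a called feature stood beside a compared one that was not called. Features of a component share sequence, so they are not separate observations. A shift in which transcripts of a feature were used was looked for through the length that the files give per library, an average weighted by transcript abundance. Of 1979 features with at least 2 transcripts and at least 50 counts in both libraries, 84 (4.24%) differed in that length by 20% or more, 36 longer and 48 shorter in the synarcual. At least 2-fold apart in level were 4 of the 84, where 6.31% of all compared features were at least 2-fold higher and 5.44% lower. Those shares need 50 counts in the higher library only, so they are not a like background for the 84. Of the 80 that had at least 50 counts in both stage 28 libraries, 30 differed in the same direction there, and 9 of those by 20% or more. No such share over all features with at least 2 transcripts is given for stage 28, so these counts are not read further.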

How the data were processed

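RNA-seq libraries were unstranded, per the labels' protocols. The authors' deposited files hold, per assembled gene, TPM, FPKM and estimated counts in the columns that RSEM writes, per the file headers; FPKM was not used. The lengths (other values) are those the authors' files give. Per the submitters' processing notes the tools were Bowtie2 and RSEM; their versions, any feature filter and whether a count is a read or a pair are not stated in those notes or the labels. Estimated counts were rounded. TMM factors (edgeR 4.0.16, R 4.3.3) came from all 4 libraries, on the 14668 features that reached 10 counts in 2 or more libraries; log2 folds used a prior count of 2, and TPM folds a pseudocount of 0.1. Intervals are exact 95% Clopper-Pearson; reads without molecular identifiers are not independent molecules. A value of 0 allows 3 counts, 0.765 scaled CPM for the synarcual of stage 33 and 0.981 for its post-synarcual. Each group is 1 library, so no test across features was made, and the planned rule was one of size: at least 2-fold, where the higher library reached 50 counts. Folds and intervals were tested on simulated Poisson counts with as many features raised as lowered. Such data lack the difference in concentration between the stage 33 libraries, so they cannot show which scaling is right here. Named by rule were the 2 features per direction with the largest fold and the 2 with the most counts among those at least 2-fold apart. The comparison, lists and rules were chosen with earlier results of these data known. Without strand, reads cannot be assigned between antisense partners.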

Additional observations from a re-analysis of the deposited data

Results flagged for a closer look

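TRINITY_DN30875_c0_g1 was at least 2-fold apart at both stages in opposite directions, higher in the stage 28 synarcual by a log2 fold of 1.27 and, at stage 33, with a log2 fold of -1.81. The later fold minus the earlier one is -3.08, and this difference was not tested. It is 1 of 23 features with opposite directions at the 2-fold limit, of which 8 were lower in the synarcual at stage 33 and 15 higher, and the only one of the 8 with at least 5000 counts at stage 33. The 8 are 2.55% of the 314 lower features measured at stage 28, where 2.97% of all 8206 were higher. The 15 are 3.76% of the 399 higher features measured there, where 4.58% of all were lower. Neither share exceeds that of all features, so the number of such features is not read further.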

How the results depend on the processing

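No paired analysis was possible because each group has 1 library, and no replicate could be left out. Each of 23 results was recomputed under up to 13 alternatives. For the higher and lower features at 2-fold and then at 4-fold, total counts gave 1451, 241, 56 and 3; totals without the 10 most abundant features 1135, 297, 28 and 5; and TPM 1645, 232, 99 and 3. A minimum of 20 counts gave 855 higher, and 20 and 50 at 4-fold; a minimum of 100 gave 0 at least 4-fold higher; no minimum gave 2294, 1575, 135 and 152. Prior counts of 0.5 and 5 gave 5 and 1 features at least 4-fold higher. With the whole counting interval beyond the limit the numbers were 141, 302, 0 and 6. Features with 1 transcript and alone in their component numbered 360 higher and 302 lower, fewer because fewer were compared. Of features with at least 5000 counts, 8 were higher with total counts, with totals without the 10 most abundant and in TPM, and 3 among those with 1 transcript and alone in their component, while between 28 and 41 were lower under all alternatives. Higher features made up 53.7% of differences, 85.8% with total counts, 79.3% with totals without the most abundant, 87.6% in TPM and 31.8% by the whole interval. The last share depends on abundance too, because the interval narrows with the count. The median for 1000 to under 5000 counts turned to 0.18, 0.058 and 0.22 with total counts, totals without the most abundant features and TPM. That for 200 to under 1000 counts turned from -0.012 to 0.45, 0.33 and 0.50 in the same order. With TMM factors from the 2 stage 33 libraries it was 0.0059. The median for 50 to under 200 counts turned to -0.0025 with DESeq2's size factors. An alternative added after the data were seen, the scaling of the shortest features with 1000 to under 5000 counts, moved their median from -0.47 to -0.0043 with total counts and turned it to 0.051 in TPM. The named features kept their sign and a 2-fold difference in all 93 recomputed folds. They had been picked by their fold, or by count among features 2-fold apart. A change of the count minimum or of the feature set cannot alter the fold of a feature. Part of this tally was therefore fixed in advance. Between 7577 and 8735 features reached 50 counts in a stage 33 library, so lower ones were not compared.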
